A study of Mus musculus with 4 samples.

Results

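β-cells, the insulin-secreting cells of the pancreatic islet, were compared between the islets that had received interleukin-1β (IL-1β) together with interferon-γ (IFN-γ) for 6 h and untreated islets, by single-cell RNA sequencing. The cells were chosen by their hormone transcripts. A barcode was kept when it had 200 to 4000 detected genes and at most 12% of its unique molecular identifiers (UMIs) in mitochondrial genes, and it was a β-cell when *Ins1* and *Ins2* together made at least 5% of its UMIs and *Gcg*, *Sst* and *Ppy* each made under 1%. This left 1255 β-cells with both cytokines and 1170 without treatment, or 2425 of the 3331 kept cells of these libraries and of the 12571 barcodes of the whole series. The insulin level and the other 3 hormones therefore chose the cells, and their values below are a description.

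The islets came from adult male C57BL/6 mice (C57BL6/J in the study's methods), were pooled from several animals, and were divided before treatment, so that each condition is 1 library and no difference between conditions has a replicate check. The untreated library is the control. Libraries with IL-1β alone (1123 β-cells) and with IFN-γ alone (1256 β-cells) share that control, and their values are set side by side only. The islets were treated whole and were then dissociated, which leaves β-cells in contact with α-cells, δ-cells, endothelial cells and macrophages during the exposure. No test was run. Intervals are exact 95% intervals that cover counting error only, and not the difference between one culture and another.

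IL-1β signals through its receptor and MyD88 to NF-κB, which turns on chemokines, adhesion molecules and its own inhibitors. IFN-γ signals through JAK kinases to STAT factors, which turn on IRF1, guanylate-binding proteins and the genes of antigen presentation. In β-cells the pair is the classical model of islet inflammation in autoimmune diabetes, and mature β-cells depend on a small set of transcription factors, on glucose transport and metabolism, on ion channels and on regulated exocytosis for insulin secretion.

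The depth of the cells differed between the libraries. The β-cells held 19868129 UMIs in all without treatment and 15458997 with both cytokines, and the median was 17220.5 and 12209 UMIs per cell, with 3517.5 and 2884 detected genes. The upper limit on detected genes removed 843 of 2364 untreated barcodes and 222 of 2032 with both cytokines, so that it weighed more on the untreated side. Without that limit there were 1793 and 1360 β-cells. The 2 libraries had 2 barcodes in common, of which none was a β-cell in both.

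The label of the cells was checked against the 8 β-cell markers that the rule did not use. *Iapp*, which encodes islet amyloid polypeptide, had 53297 and 44313 CPM, the UMIs of a gene summed over the β-cells of a library per 1000000 UMIs of those cells, untreated and with both cytokines. It had a UMI in every β-cell, but also in 94.3% and 75.9% of macrophages, at 909 and 173 CPM, so that the share of cells does not separate the types. *G6pc2* had a UMI in 92.3% of untreated and 71.5% of treated β-cells and *Ero1lb* in 96.3% and 84.5%. The other 5 markers were at least 2-fold lower in level with both cytokines. Their shares of cells were 89.2% and 53.9% for *Nkx6-1*, 83.7% and 30.04% for *Pdx1*, 88.5% and 37.8% for *Mafa*, 72.5% and 10.7% for *Slc2a2*, and 83.5% and 33.1% for *Ucn3*. *Ins1* and *Ins2* made 42.3% of the summed UMIs without treatment and 33.7% with both. Their share was 22.3% in the IL-1β library and 28.8% in the IFN-γ library. Since CPM are shares of all UMIs, a lower insulin share by itself raises the CPM of other genes in each treated library, most where IL-1β was given alone. Just inside the insulin limit, at 5 to 10% of UMIs, there were 21 untreated cells with a median of 812 UMIs and 42 treated cells with a median of 8927.5 UMIs. Just outside it, at 2.5 to 5%, there were 15 and 9 cells.

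Transcripts of other cell types were present in these cells and did not all change in the same direction. The 9 acinar markers, whose most abundant gene was *Ctrb1*, summed to 78.7 CPM without treatment and 396 CPM with both cytokines, and 7 of them were at least 2-fold higher. *Ctrb1* had a UMI in 25% of untreated and 7.65% of treated β-cells, and with equal weight for each cell its direction turned, so that the higher level lay in few cells. Of 10 macrophage markers 7 were at least 2-fold lower, including *Lyz2* and *Tyrobp*, and 1, *Cd68*, was at least 2-fold higher. Their sum was 89.5 and 149 CPM, most of it *C1qa* at 71.1 and 137 CPM. The 7 ductal markers summed to 436 and 878 CPM, with 2 of them at least 2-fold higher and 1 at least 2-fold lower. *Krt18* was 160.0 and 302 CPM, *Cldn7* 68.2 and 390.1, *Krt7* 203 and 175 and *Krt19* 2.92 and 1.23, so that *Krt7* was the most abundant untreated and *Cldn7* with both. The 5 T-cell and 4 erythroid markers had no UMI in either library, and the 8 endothelial markers, 5 of them at least 2-fold higher, summed to 4.98 and 7.44 CPM. The part of these transcripts in the results below was not tested.

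With both cytokines, more genes were at least 2-fold higher than lower when insulin was part of the totals, and the numbers were nearly equal when the hormone genes were left out. A gene was counted when the mean of its levels in the 2 libraries was at least 10 CPM, which 7127 of 31053 measured genes were. Of these, 807 were at least 2-fold higher with both cytokines (11.3%), 418 were at least 2-fold lower (5.87%), and 971 were at least 1.5-fold lower (13.6%). At the 4-fold limit, 306 genes were higher and 53 were lower. The median log2 ratio over all genes counted was 0.11. Since insulin took a smaller share of UMIs in the treated cells, the hormone genes were also left out of the totals, which moved the median by -0.20 on the log2 scale and gave 624 genes at least 2-fold higher and 627 at least 2-fold lower. A decrease is therefore relative to the transcripts of the same cells, and fewer transcripts per cell cannot be told apart from a lower share.

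**Figure D1:**
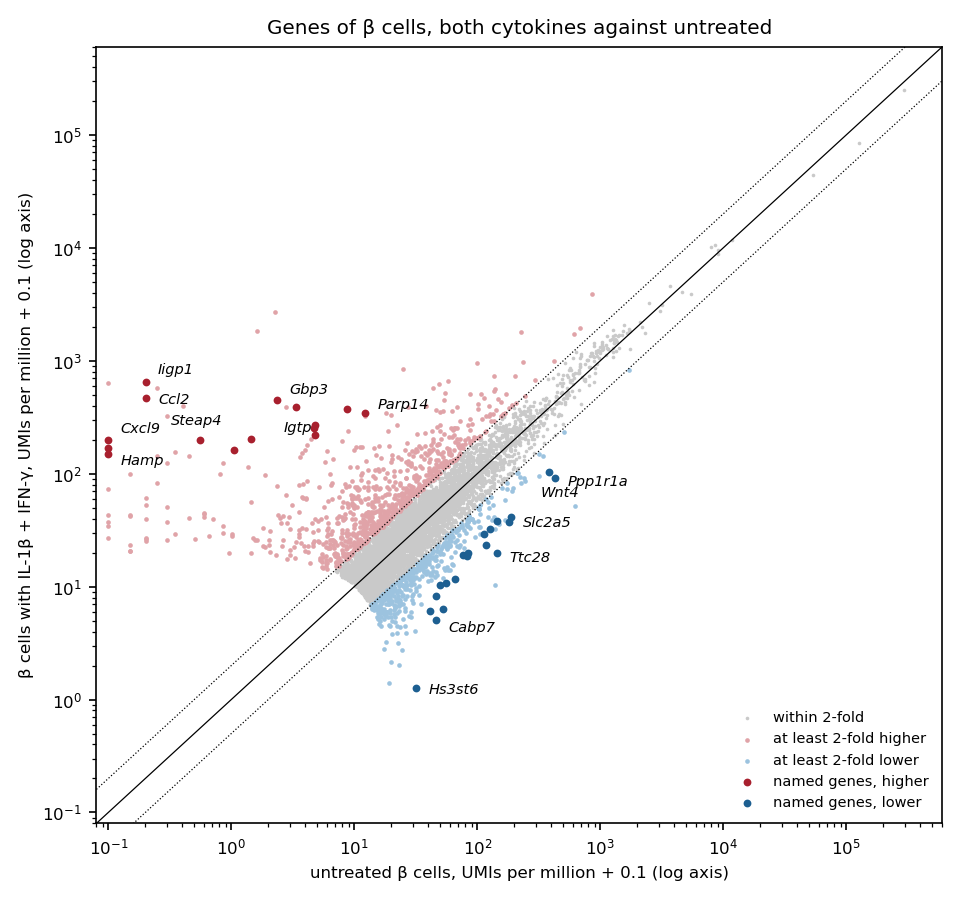
Level of each of the 7127 genes counted in β-cells of the untreated library (x axis) and of the library with both cytokines (y axis), in CPM plus 0.1 on log axes, 1 point a gene. The solid line marks equal levels and the dotted lines 2-fold. The higher genes spread far above the upper dotted line, while the lower genes stay within a narrower band, with *Hs3st6* farthest below it among the named genes.

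The genes named next were ranked on this same contrast, so that their ratios describe them and support nothing. They are the 15 highest and the 20 lowest genes that the study's text does not name, without cell type markers. The strongest was *Iigp1*, an interferon-inducible GTPase that attacks the vacuoles of intracellular parasites, with 0.101 CPM untreated, 1.25 after IL-1β, 1143 after IFN-γ and 646 after both cytokines. Its untreated level rests on 2 UMIs, so that the ratio of 6413 has an interval from 1775 to 52963. The level was higher with IFN-γ alone than with both. *Igtp*, a GTPase of the same family, had 3.27 CPM untreated, 5.64 after IL-1β, 560.3 after IFN-γ and 387 after both cytokines, a ratio of 118 (92.7 to 154). Among the guanylate-binding proteins, *Gbp3* had 2.26 CPM untreated, 63.1 after IL-1β, 169 after IFN-γ and 451 after both cytokines. *Gbp7* had 8.66 CPM untreated, 37.3 after IL-1β, 418 after IFN-γ and 371 after both cytokines. Both libraries with IFN-γ exceeded the others for these GTPases, and *Gbp3* and *Gbp8*, but not *Gbp7*, were higher with both cytokines than with IFN-γ alone (92.9 and 202 CPM for *Gbp8*).

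Other genes of this group were high with IL-1β alone. *Steap4*, a membrane metalloreductase, had 0.453 CPM untreated, 350.3 after IL-1β, 1.79 after IFN-γ and 199.9 after both cytokines, and *Hamp*, which encodes the iron-regulating peptide hepcidin, had no UMI untreated, 149.8 CPM after IL-1β, 0.502 after IFN-γ and 168 after both. *Cxcl1*, a neutrophil chemoattractant, had no UMI untreated, 262 CPM after IL-1β, 1.51 after IFN-γ and 149 after both. Set against a floor of 3 UMIs over the untreated β-cells, *Hamp* was 1114-fold and *Cxcl1* 985-fold higher with both cytokines. These are not lower limits, and the exact lower limit of the *Cxcl1* ratio was 801. *Il4i1*, a secreted amino acid oxidase, had 0.956 CPM untreated, 209.8 after IL-1β, 2.01 after IFN-γ and 161 after both cytokines. *Tifa*, an adaptor that links TRAF proteins to NF-κB, had 4.68 CPM untreated, 170.3 after IL-1β, 8.25 after IFN-γ and 269 after both cytokines. In this IL-1β group, *Steap4*, *Cxcl1* and *Il4i1* were lower with both cytokines than with IL-1β alone, and *Hamp* and *Tifa* were higher.

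Another group was highest with the combination, by a wide step for *Ccl2* and *Cxcl9* and a narrow one for *Cd274*. *Ccl2*, the monocyte chemoattractant, had 0.101 CPM untreated, 133 after IL-1β, 23.2 after IFN-γ and 469.7 after both cytokines. *Cxcl9*, which attracts T-cells through CXCR3, had no UMI without treatment or with IL-1β, 1.86 CPM after IFN-γ and 199.8 after both. The last level was 1323-fold above the untreated floor, and the exact lower limit of the ratio was 1075. *Parp14*, a mono-ADP-ribosyltransferase, had 12 CPM untreated, 48 after IL-1β, 172 after IFN-γ and 343 after both cytokines. *Cd274*, which encodes the T-cell inhibitory ligand PD-L1, had 4.58 CPM untreated, 13.1 after IL-1β, 240.01 after IFN-γ and 256 after both cytokines, and *Tap1*, a subunit of the peptide transporter of antigen presentation, had 4.73 CPM untreated, 15.8 after IL-1β, 161 after IFN-γ and 219 after both cytokines. For *Cxcl9*, the endothelial cells of the treated library held 6731 CPM and the macrophages 2904 CPM against 199.8 in β-cells, and 16% of β-cells had a UMI. Free RNA from those cells was not tested as a source.

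**Figure D2:**
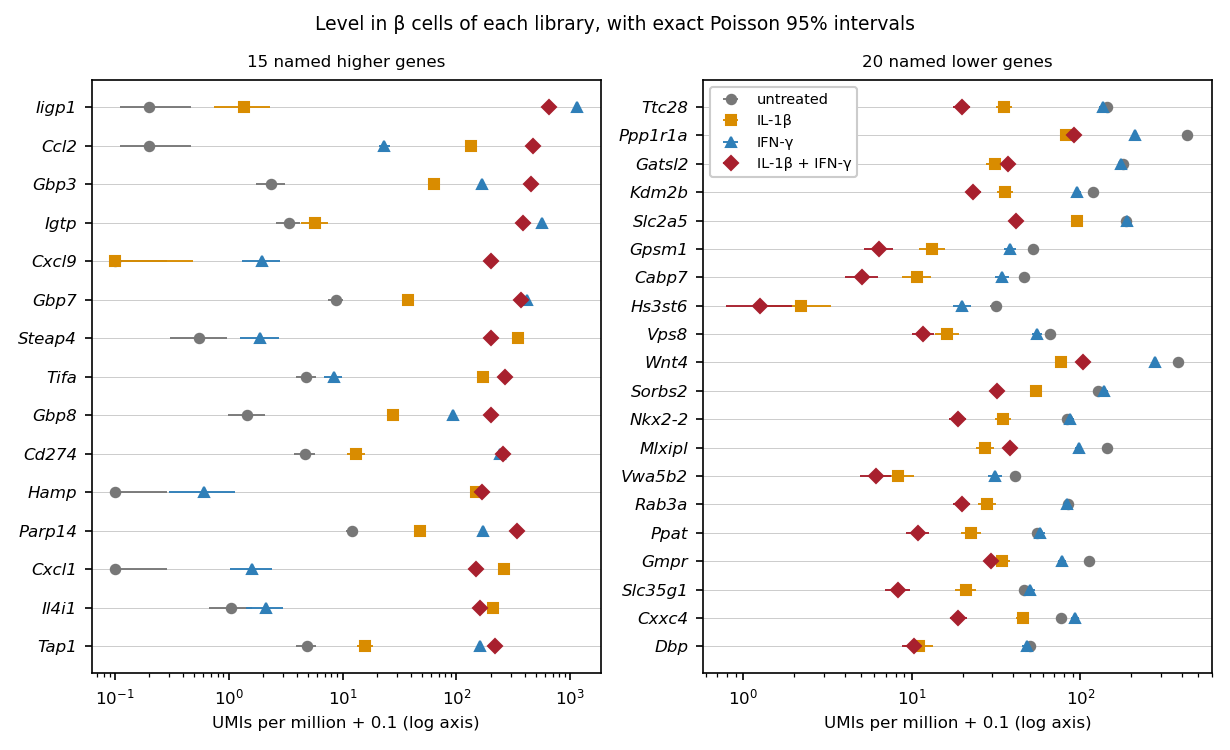
Levels in β-cells of the 15 named higher genes (left) and the 20 named lower genes (right) in the 4 libraries, in CPM plus 0.1 on a log axis, with exact Poisson 95% intervals from counting error. The untreated points lie farthest left for the higher genes, where *Cxcl9* is at 0 both untreated and with IL-1β and these points overlap. For most of the lower genes the IFN-γ points lie nearer to the untreated ones and the IL-1β points nearer to those of both cytokines.

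Promoters were read for the letters of 3 motifs that these pathways are known to use. RefSeq promoters (assembly GRCm38.p6, 250 bases before to 50 after each start) were searched on both strands for the ISRE core GAAANNGAA, bound by IRF and STAT complexes, for the GAS motif TTCNNNGAA, bound by STAT dimers, and for the NF-κB consensus, and the same bases may match more than one of them. Of the named higher genes, the 3 whose promoter matched 2 of the 3 motifs are shown (11 of the 15 had a promoter in the table, all but *Iigp1*, *Ccl2*, *Gbp8* and *Parp14*), and they differ between the single cytokines: *Steap4* was high with IL-1β alone, and *Igtp* and *Gbp7* with IFN-γ alone. Capitals mark every base inside a match. The windows are chr5:7960222-7960521 (+ strand) for *Steap4*, chr11:58199306-58199605 (+ strand) for *Igtp* and chr3:142530086-142530385 (+ strand) for *Gbp7*, each 5′ to 3′ on the strand of its gene.
Steap4: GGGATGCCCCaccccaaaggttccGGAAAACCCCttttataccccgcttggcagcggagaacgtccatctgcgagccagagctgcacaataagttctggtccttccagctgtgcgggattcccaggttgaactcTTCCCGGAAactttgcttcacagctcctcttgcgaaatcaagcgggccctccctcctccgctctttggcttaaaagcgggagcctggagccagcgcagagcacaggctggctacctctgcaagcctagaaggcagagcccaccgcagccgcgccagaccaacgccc
Igtp: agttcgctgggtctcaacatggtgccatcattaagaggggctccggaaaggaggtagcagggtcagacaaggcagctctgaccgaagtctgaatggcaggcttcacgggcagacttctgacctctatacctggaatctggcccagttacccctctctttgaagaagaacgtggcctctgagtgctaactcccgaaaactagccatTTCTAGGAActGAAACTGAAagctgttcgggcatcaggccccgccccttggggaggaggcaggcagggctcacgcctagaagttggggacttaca
Gbp7: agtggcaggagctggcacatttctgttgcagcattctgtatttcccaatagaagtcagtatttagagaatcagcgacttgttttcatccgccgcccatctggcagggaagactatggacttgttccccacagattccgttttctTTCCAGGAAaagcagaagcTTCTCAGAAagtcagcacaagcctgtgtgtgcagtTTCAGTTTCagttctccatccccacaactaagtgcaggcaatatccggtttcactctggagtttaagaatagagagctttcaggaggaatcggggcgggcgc
The *Steap4* window held 1 GAS match and 2 matches to the NF-κB consensus and no ISRE core. The *Igtp* window held 1 GAS match and 1 ISRE core, and the *Gbp7* window held 2 GAS matches and 1 ISRE core. Neither of these GTPase windows held the NF-κB consensus.

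Over sets of genes, the ISRE core matched 17.9% of the 279 promoters of genes at least 4-fold higher, 12.5% of the 802 of genes at least 2-fold higher, 5.76% of the 1007 of genes at least 1.5-fold lower, 7.29% of the 7275 of all genes counted and 8.56% of all 32851 promoters. The GAS motif matched 14%, 10.2%, 4.47%, 6.39% and 8.3% in the same order, and the NF-κB consensus 18.6%, 14.3%, 10.1%, 10.3% and 8.46%. None of the 3 was found in 58.8% of the promoters at the 4-fold limit, against 77.9% for all genes counted. For the 15 named higher genes, 4 of 13 promoters (30.8%) held none. A match is a run of letters and not a site shown to be bound, and these windows do not hold distal elements.

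The receptors and signal carriers of both pathways were measured in the same cells. *Il1r1*, the signalling receptor of IL-1β, was the one counted member of its list at least 1.5-fold lower, at 239.7 CPM untreated, 254 after IL-1β, 223 after IFN-γ and 91.7 after both, or 2.61-fold lower (2.46 to 2.78). The single cytokines left it within 1.5-fold of the untreated level. Downstream of the receptor, *Myd88* went from 7.35 to 42 CPM, *Rela* from 13.6 to 46.1 CPM, *Relb* from 4.73 to 39.9 CPM and *Nfkb2* from 2.37 to 40.4 CPM, whereas the kinase genes *Irak1* (111 and 108 CPM) and *Map3k7* (22.9 and 22.4 CPM) had nearly equal levels. Of the 22 genes listed from the IL-1 receptor to NF-κB, 14 were counted, 6 were at least 2-fold higher and the median log2 ratio was 0.93, beside 11.3% and 0.11 over all genes counted. 4 of the 14, *Myd88*, *Relb* and *Nfkb2* among them, were over 10 CPM in one library only.

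On the interferon side, 12 of 15 counted genes of the list of 18 were at least 2-fold higher and none was at least 1.5-fold lower, beside 11.3% and 13.6% of all genes counted. *Ifngr2*, the signalling chain of the IFN-γ receptor, had 5.59 CPM untreated, 58.2 after IL-1β, 5.09 after IFN-γ and 51 after both cytokines, so that it was high where IL-1β was present. *Stat2*, which works with type I interferon signals, had 12.9 CPM without treatment and 108 with both. *Irf8*, a transcription factor better known from myeloid cells, had 5 UMIs without treatment and 29.2 CPM with both, and *Nlrc5*, the transactivator of MHC class I genes, 4 UMIs and 25.6 CPM. In this list, 7 genes reached 10 CPM in one library only. A gene that is counted only through its high library had to differ, so that the counts of lists with many such genes describe what is present and do not support a direction.

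Most counted inhibitors of both pathways were higher. *Socs1*, which blocks JAK kinases, had 0.705 CPM untreated, 8.67 after IL-1β, 36.9 after IFN-γ and 99.5 after both cytokines, and *Tnfaip3*, the deubiquitinase A20 that restrains NF-κB, had 1.26 CPM untreated, 79.8 after IL-1β, 4.16 after IFN-γ and 115 after both cytokines. The ribonuclease gene *Zc3h12a* went from 0.503 to 41.4 CPM, *Ptpn2*, a STAT phosphatase and diabetes risk gene, from 14.7 to 91.3 CPM, and *Usp18*, which limits type I interferon signalling, from 7.4 to 61.5 CPM. *Socs2* was the exception, at 19.7 CPM without treatment and 9.7 with both. Of 25 listed inhibitors 20 were counted, 15 were at least 2-fold higher and 1 was at least 1.5-fold lower, beside 11.3% and 13.6% of all genes counted, with 8 over 10 CPM in one library only. Among the TRAF and survival adaptors, *Birc3* had 4.38 CPM untreated, 197 after IL-1β, 8.1 after IFN-γ and 201 after both cytokines, and *Ripk2*, the kinase downstream of NOD receptors, went from 3.52 to 141 CPM.

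Most genes of antigen processing were higher. Of the 13 genes of the immunoproteasome and peptide loading, all were counted, 10 were at least 2-fold higher, beside 11.3% of all genes counted, and only *Tap1* lay over 10 CPM in one library only. *Psmb8*, *Psmb9* and *Psmb10*, the inducible catalytic subunits, went from 38.5 to 397 CPM, from 18.6 to 239.5 CPM and from 46 to 363 CPM, whereas 32 of 34 genes of the constitutive proteasome stayed within 2-fold above and 1.5-fold below the untreated level (median log2 ratio 0.40). *Tapbpl*, a peptide editor, went from 26.7 to 185 CPM, and the chaperones *Pdia3* (544 and 529.7 CPM) and *Canx* (352 and 398 CPM) hardly differed. *B2m*, the light chain of MHC class I, had 203 CPM untreated, 322 after IL-1β, 445 after IFN-γ and 735 after both cytokines, and *H2-Q7*, whose reads can be shared with the near-identical *H2-Q6*, went from 8.51 to 76 CPM. Of 10 listed class II genes 1 was counted, *Cd74*, at 8.1 and 39.3 CPM. Its log2 ratio of 2.28 ran from 0.57 to 3.62 under other settings, so that the 2-fold limit was not kept in all of them. A *Cd74* UMI was found in 2.05% of untreated and 23.8% of treated β-cells.

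Most counted genes for antiviral defence and for signals to other cells were higher with both cytokines. Of 43 antiviral effectors and sensors, 30 were counted and 28 were at least 2-fold higher, beside 11.3% of all genes counted, with 16 over 10 CPM in one library only, while *Apobec1*, an RNA-editing deaminase, was lower at 23.3 and 13.7 CPM. *Zbp1*, a sensor of Z-form nucleic acids, had 4 untreated UMIs and 50.7 CPM with both. *Ifit2* had 2 UMIs and 61 CPM, and *Rnf213* went from 7.9 to 69.5 CPM. Among the chemokines, *Cxcl16* had 18.3 CPM untreated, 61.1 after IL-1β, 14.4 after IFN-γ and 101 after both cytokines, and *Ccl28* had 9.11 CPM untreated, 105 after IL-1β, 6.88 after IFN-γ and 45.4 after both cytokines. The remaining 14 measured chemokines of the list were not counted. *Csf1*, the growth factor of macrophages, had 9.06 CPM untreated, 93.9 after IL-1β, 22.4 after IFN-γ and 114 after both cytokines, and *Tnfsf10*, the death ligand TRAIL, had 3.47 CPM untreated, 17 after IL-1β, 123 after IFN-γ and 78.5 after both cytokines, so that they were high with different cytokines.

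All 10 counted acute phase and complement genes were at least 2-fold higher, beside 11.3% of all genes counted, 7 of them over 10 CPM in one library only. *Lcn2*, a siderophore-binding lipocalin, had 27.1 CPM untreated, 531 after IL-1β, 32.6 after IFN-γ and 389 after both cytokines, *Saa3* had 2 UMIs untreated and 39.7 CPM with both, and *Serping1*, the C1 inhibitor, had 42.6 CPM untreated, 144 after IL-1β, 231 after IFN-γ and 237 after both cytokines. *Lcn2* was high only where IL-1β was present, and *Serping1* was higher with IFN-γ alone than with IL-1β alone. Untreated and treated β-cells with a UMI were 4.53% and 23.2% for *Lcn2*, 0.171% and 5.18% for *Saa3*, and 41.5% and 84.5% for *Serping1*. With equal weight for each cell the log2 ratio went from 8.62 to 5.24 for *Saa3* and from 3.84 to 2.98 for *Lcn2*. Among antioxidant and metal genes, 9 of 25 were at least 2-fold higher and none was 1.5-fold lower, beside 11.3% and 13.6% of all genes counted, and the list's median log2 ratio of 0.27 was near the 0.11 of all genes. In this list 1 counted gene was over 10 CPM in one library only. *Mt1*, a metallothionein, had 855 CPM untreated, 5236 after IL-1β, 1524 after IFN-γ and 3860.4 after both cytokines, and *Gpx1* had 65.8 CPM untreated, 283 after IL-1β, 105 after IFN-γ and 252 after both cytokines. *Gsr*, which regenerates reduced glutathione, had 45.9 CPM untreated, 149.99 after IL-1β, 56.3 after IFN-γ and 99.9 after both cytokines. *Prdx2*, a peroxiredoxin, was 160.3 and 161 CPM, and *Prdx4*, another, 20.6 and 19.3.

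Genes of cell death and stress showed both sides. *Casp4*, the inflammatory caspase, had 1 UMI untreated and 20.4 CPM with both, its substrate *Gsdmd* went from 1.51 to 26 CPM, and the necroptosis effector *Mlkl* from 0.906 to 28.9 CPM. The protective members *Bcl2l1* (from 13.9 to 55.8 CPM) and *Mcl1* (from 41.6 to 107 CPM) were higher too, and *Bax* was level, at 116 and 119.5 CPM. Of the 29 genes of the unfolded protein and integrated stress response, 2, *Atf3* and *Trib3*, were over 10 CPM in one library only. Among all 29, 9 were at least 2-fold higher and 2 at least 1.5-fold lower, beside 11.3% and 13.6% of all genes counted. The higher ones included the transcription factors *Atf4* (from 155 to 428 CPM), *Ddit3* (from 61.2 to 256 CPM) and *Atf3* (from 0.755 to 29.4 CPM) and the kinase-like regulator *Trib3* (from 9.46 to 59.6 CPM), whereas *Hsp90b1* was 747 and 688 CPM and *Pdia4* 135 and 89.1. Of 14 counted heat shock genes 8 were at least 2-fold higher, beside the same 11.3%, among them *Hspa8* (from 689 to 1940.2 CPM) and *Hsp90aa1* (from 421 to 996 CPM). The treated library also held more β-cells with at least 10 *Hspa1a* UMIs per 10000 (78 cells, 6.22%, against 19 untreated cells, 1.62%), as did the libraries with IL-1β alone (8.73%) and IFN-γ alone (6.21%).

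Of the named lower genes, *Ttc28*, a tetratricopeptide repeat protein, had 144 CPM untreated, 35.1 after IL-1β, 135 after IFN-γ and 19.7 after both cytokines, or 7.34-fold lower (6.52 to 8.29). *Hs3st6*, a heparan sulfate 3-O-sulfotransferase, had 31.6 CPM untreated, 2.09 after IL-1β, 19.7 after IFN-γ and 1.16 after both cytokines, or 27.1-fold lower (17 to 46), the largest ratio among the 20. *Ppp1r1a*, the PKA-regulated inhibitor of protein phosphatase 1, had 429.99 CPM untreated, 81.9 after IL-1β, 211 after IFN-γ and 91.6 after both cytokines, and it was the one named gene at least 2-fold lower with IFN-γ alone as well. *Gatsl2*, a relative of the arginine sensor of mTORC1, had 179.7 CPM untreated, 30.8 after IL-1β, 174 after IFN-γ and 37.1 after both cytokines. *Kdm2b*, a histone demethylase of CpG islands, had 119 CPM untreated, 35.5 after IL-1β, 95.9 after IFN-γ and 23 after both cytokines. In each of these IL-1β alone lay at least 3-fold below the untreated level.

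The other named lower genes have varied roles. *Slc2a5*, the fructose transporter GLUT5, had 187 CPM untreated, 95.4 after IL-1β, 188 after IFN-γ and 41.5 after both cytokines. *Gpsm1*, an activator of G protein signalling, had 52.2 CPM untreated, 13.1 after IL-1β, 38.1 after IFN-γ and 6.27 after both cytokines. *Cabp7*, a calcium-binding protein of the Golgi, had 46.4 CPM untreated, 10.7 after IL-1β, 34.2 after IFN-γ and 4.98 after both cytokines. With IL-1β alone, *Gpsm1* and *Cabp7* were nearer to the level with both cytokines than to the untreated level, and IFN-γ alone left *Slc2a5* at the untreated level. *Wnt4*, a secreted Wnt ligand, had 381 CPM untreated, 76.2 after IL-1β, 278 after IFN-γ and 103 after both cytokines, and *Cxxc4*, an inhibitor of Wnt signalling, had 76.6 CPM untreated, 45.2 after IL-1β, 92.2 after IFN-γ and 18.8 after both cytokines. *Wnt4* was lower with IL-1β alone than with both, and *Cxxc4* was lowest with both. *Ppat*, the first enzyme of purine synthesis, went from 55.3 to 10.7 CPM, and *Gmpr*, which returns GMP to IMP, from 113 to 29.2 CPM. *Vps8* (endosomal tethering), *Sorbs2* (a cytoskeletal adaptor), *Vwa5b2* and *Slc35g1* were 5.7-, 3.97-, 6.8- and 5.68-fold lower with both cytokines. The 4 remaining named genes, *Nkx2-2*, *Mlxipl*, *Rab3a* and *Dbp*, belong to the lists that follow. Genes named from those lists, and from the lists above, were chosen after their values were seen.

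Transcription factors of endocrine cells were lower as a group. Of 30 listed, 29 were measured and 22 counted, of which 15 were at least 1.5-fold lower, 9 of them at least 2-fold, and 1 was higher, with a median log2 ratio of -0.87 (13.6%, 5.87%, 11.3% and 0.11 over all genes counted), and 3 were over 10 CPM in one library only. *Nkx2-2*, needed for β-cell fate, had 82.7 CPM untreated, 34.5 after IL-1β, 86.3 after IFN-γ and 18.6 after both cytokines, or 4.44-fold lower (3.91 to 5.05). *Mlxipl*, the glucose-responsive factor ChREBP, had 144 CPM untreated, 27.2 after IL-1β, 97.3 after IFN-γ and 38 after both cytokines. *Rfx6* had 38.3 CPM untreated, 35.6 after IL-1β, 48.6 after IFN-γ and 12.9 after both cytokines, so that neither cytokine alone gave the level seen with both. *Sox4* (54.4, 42.9, 40.8 and 14 CPM in the same order) was likewise far lower with both than with either, as were *Rfx3* (15.2, 19.95, 20.9 and 7.83) and *Pax6* (200.02, 243, 253 and 114). *Neurod1* (142 and 166 CPM) and *Insm1* (127 and 159 CPM) were not lower, and *Isl1* was within 1.5-fold.

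*Mafa*, a factor of mature β-cells, had 622 CPM untreated, 71.3 after IL-1β, 468 after IFN-γ and 52.1 after both cytokines. The α-cell marker *Ttr* was lower (195 and 74.5 CPM), and *Gcg*, on which the cells were chosen, was at 132 and 84.5 CPM. Of the 21 genes listed as disallowed in β-cells or as marks of dedifferentiation, 1 was counted, *Id3*, at 14 and 20.5 CPM.

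In glucose metabolism a few steps were lower and most were level. 6 of 26 counted genes were at least 1.5-fold lower and 2 at least 2-fold higher, beside 13.6% and 11.3% of all genes counted, with a median log2 ratio of 0.03. *Pcx*, the anaplerotic pyruvate carboxylase, had 40.6 CPM untreated, 18.9 after IL-1β, 27 after IFN-γ and 16.9 after both cytokines, *Gpd2*, the mitochondrial glycerol phosphate dehydrogenase, 118, 70.1, 156 and 66.8, and *Pfkfb2* 24.9, 25.4, 27.2 and 13. *Slc2a1*, the transporter GLUT1 that most mouse β-cells express little of, had 16.8 CPM untreated, 82.4 after IL-1β, 20.4 after IFN-γ and 61.8 after both cytokines, and *Pfkp*, the platelet form of phosphofructokinase, had 53 CPM untreated, 232 after IL-1β, 80.8 after IFN-γ and 223 after both cytokines. The enzyme genes *Pkm* (709.8 and 719 CPM), *Mdh2* (144 and 147) and *Pdha1* (37.3 and 35.8), were nearly equal.

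Several receptors that tune insulin secretion were lower. *Galr1*, the galanin receptor, had 19.1 CPM untreated, 5.43 after IL-1β, 25.3 after IFN-γ and 1.29 after both cytokines, a 14.8-fold lower level (9.44 to 24.5). The incretin receptor *Gipr* had 33.3 CPM untreated, 13.2 after IL-1β, 22.9 after IFN-γ and 10.1 after both cytokines, the glucagon receptor *Gcgr* 19.9, 5.22, 12.5 and 5.3, and the fatty acid receptor *Ffar1* 104, 51, 99.4 and 33.9. *Prlr*, through which prolactin expands β-cells in pregnancy, had 138 CPM untreated, 57.9 after IL-1β, 156 after IFN-γ and 41.3 after both cytokines. *Galr1*, *Gipr*, *Ffar1* and *Prlr* were lowest with both cytokines, and *Gcgr* was as low with IL-1β alone. The adenylyl cyclase genes *Adcy6* and *Adcy9* were 2.71- and 2.59-fold lower, and the phosphodiesterase gene *Pde10a* 2.57-fold.

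Others of the same list were higher, so that it had no single direction: 13 of 31 counted genes were at least 1.5-fold lower and 5 at least 2-fold higher, beside 13.6% and 11.3% of all genes counted (median log2 ratio -0.23). 4 of the 31, *Galr1*, *Gcgr* and *Rgs16* among them, were over 10 CPM in one library only. *Rgs4*, a GTPase activator that ends G protein signals, had 37.7 CPM untreated, 487 after IL-1β, 66 after IFN-γ and 229 after both cytokines, and *Rgs16* went from 4.48 to 22.8 CPM. *Crem*, a repressor of cAMP-driven transcription, had 32.3 CPM untreated, 63.9 after IL-1β, 67 after IFN-γ and 87.8 after both cytokines, and *Chrm3*, the muscarinic receptor of β-cells, had 19.1 CPM untreated, 53.6 after IL-1β, 21.5 after IFN-γ and 46.6 after both cytokines. *Gnas* (752 and 656 CPM) and *Prkaca* (32.9 and 27.9 CPM) were level.

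Ion channels and calcium handling had no member at least 2-fold higher. 15 of 25 counted genes of 37 listed were at least 1.5-fold lower, 9 of them at least 2-fold, beside 13.6% and 5.87% of all genes counted, with a median log2 ratio of -0.73, and 4 of the 25 were over 10 CPM in one library only. The pore subunits of voltage-gated calcium channels *Cacna1d* (51.2, 35.9, 68.2 and 22.5 CPM, untreated, IL-1β, IFN-γ and both) and *Cacna1a* (68.1, 49, 67.5 and 32) were lower, while *Cacna1c* was not (23.9 and 24.7 CPM). *Kcnk16*, the potassium channel TALK-1, had 86.9 CPM untreated, 30.3 after IL-1β, 82.9 after IFN-γ and 33.2 after both cytokines. For calcium stores, *Itpr1* had 40.7 CPM untreated, 20.8 after IL-1β, 59.9 after IFN-γ and 15.6 after both cytokines, *Stim1* went from 53.1 to 24.5 CPM and *Atp2a2*, the SERCA2 pump, from 496 to 273 CPM, whereas *Itpr3* was 20.8 and 30.7 CPM. The subunits of the ATP-sensitive potassium channel were within 1.5-fold, *Abcc8* at 309 and 268 CPM and *Kcnj11* at 22 and 27.1.

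In vesicle exocytosis, 9 of 25 counted genes were at least 1.5-fold lower, 7 of them at least 2-fold, and 3 were at least 2-fold higher, beside 13.6%, 5.87% and 11.3% of all genes counted, so that the higher share is near that of all genes. *Rab3a*, a GTPase of secretory granules, had 84 CPM untreated, 27.8 after IL-1β, 83.1 after IFN-γ and 19.7 after both cytokines, or 4.27-fold lower (3.78 to 4.84). *Rab27a* had 90.9 CPM untreated, 78.2 after IL-1β, 101 after IFN-γ and 39.4 after both cytokines, *Pclo*, a scaffold of release sites, 189.7, 89.4, 178 and 70.8, and *Cplx2*, which clamps and primes SNARE complexes, 101, 30.7, 91.7 and 38. *Cadps* and *Syt13* were 2.07- and 2.14-fold lower. The core fusion genes *Snap25* (108 and 99.5 CPM) and *Vamp2* (79.1 and 74.1 CPM) were level, and *Syt4* (156 and 326 CPM) and *Stx3* (40.6 and 88.9 CPM) were higher.

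Most genes of prohormone processing and the granule lay within the limits. *Slc30a8*, the zinc transporter of insulin granules, had 345 CPM untreated, 192 after IL-1β, 336 after IFN-γ and 144 after both cytokines, and *Sytl4*, granuphilin, had 125 CPM untreated, 68.8 after IL-1β, 119.7 after IFN-γ and 49.6 after both cytokines. The processing enzymes *Pcsk1* (157 and 132 CPM), *Pcsk2* (1349 and 1211 CPM) and *Pam* (201 and 232 CPM) were within 1.5-fold, and *Vgf*, a secreted neuropeptide precursor, had 6.04 CPM untreated, 33 after IL-1β, 14.4 after IFN-γ and 29.1 after both cytokines. In all, 4 of 26 counted genes were at least 1.5-fold lower and 2 at least 2-fold higher, *Vgf* and *Spp1*, shares near or below the 13.6% and 11.3% of all genes counted. *Vgf* was the 1 counted gene of this list over 10 CPM in one library only. *Spp1* was 12.7 and 27.1 CPM, and its direction turned when each cell had equal weight. Of the genes for contacts between β-cells, *Gjd2*, which encodes the gap junction protein connexin 36, had 59.9 CPM untreated, 36 after IL-1β, 57.5 after IFN-γ and 13.8 after both cytokines, or 4.33-fold lower (3.74 to 5.03), whereas *Cdh1*, E-cadherin, was 104 and 163 CPM.

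**Figure D3:**
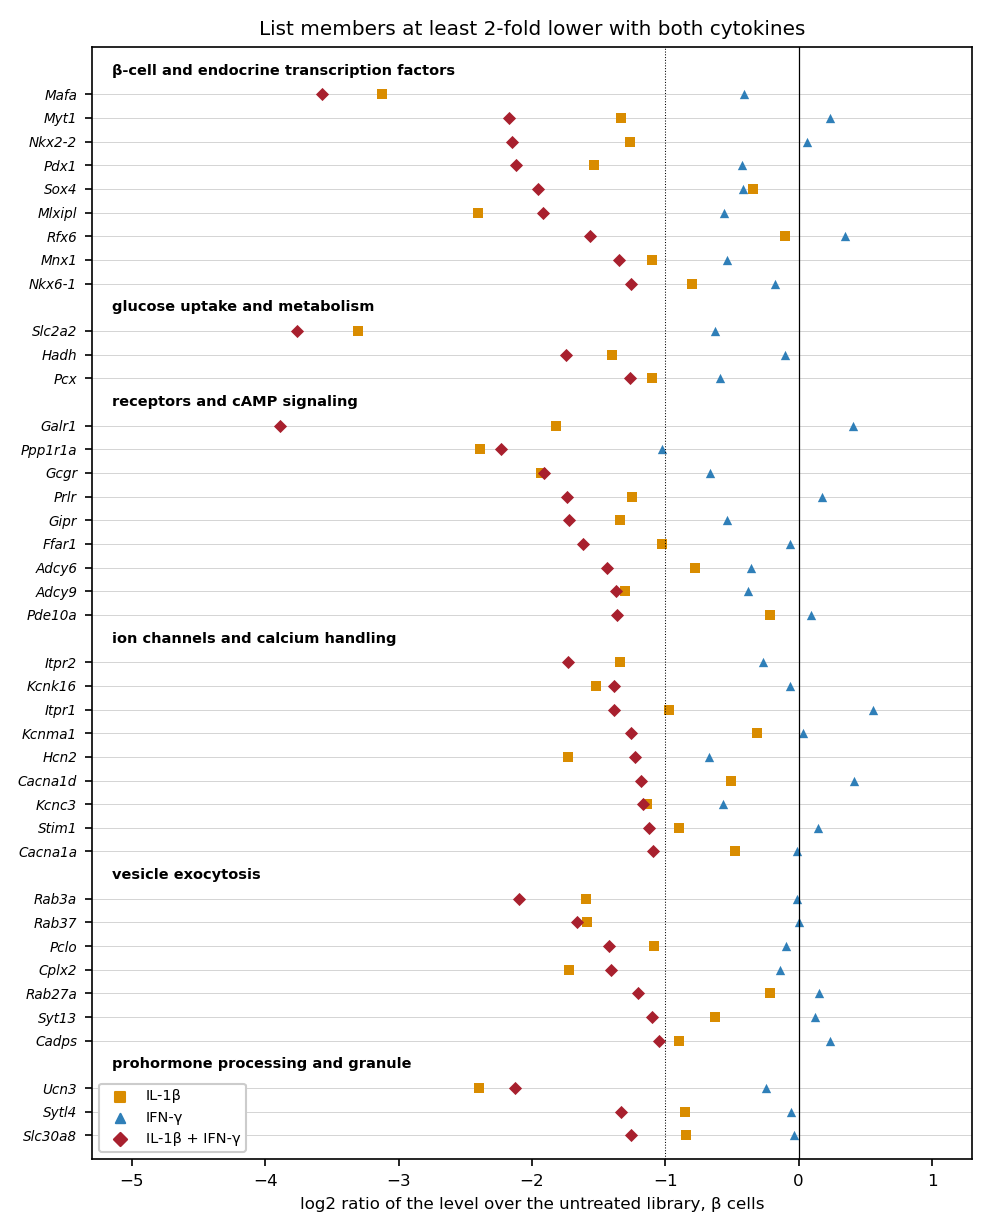
log2 ratio of the level in β-cells over the untreated library for the 40 members of 6 lists that were at least 2-fold lower with both cytokines, with IL-1β alone (squares), IFN-γ alone (triangles) and both (diamonds), which share the control. By selection every diamond lies left of the dotted 2-fold line. Most triangles lie close to 0, and the squares lie left of the dotted line for some genes (*Gcgr*, *Kcnk16*) and near 0 for others (*Rfx6*, *Pde10a*).

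The members of the nitric oxide and arginine list that the study's text does not name had no single direction. *Slc7a2*, a cationic amino acid transporter, had 78.1 CPM untreated, 43.9 after IL-1β, 98.3 after IFN-γ and 25.5 after both cytokines, while *Slc7a1*, its ubiquitous relative, had 19.5 CPM untreated, 66.6 after IL-1β, 35.4 after IFN-γ and 50.3 after both cytokines. *Odc1*, the first enzyme of polyamine synthesis, had 37.3 CPM untreated, 274 after IL-1β, 56.9 after IFN-γ and 176 after both cytokines. *Gch1*, which starts tetrahydrobiopterin synthesis, was level at 322 and 353 CPM, and *Pts*, the next step, went from 98.3 to 58.3 CPM. Lipid synthesis had no single direction. *Scd2* had 78.6 CPM untreated, 49.5 after IL-1β, 102 after IFN-γ and 21.7 after both cytokines, *Fasn* 31.6, 17.1, 29.8 and 13.5, and *Srebf1*, a factor that drives lipogenic genes, 40.9, 18.3, 33.1 and 18, whereas *Sqle* (79.8 and 91.2 CPM) and *Hmgcs1* (39.6 and 53.6) were within 1.5-fold. Of fatty acid genes, *Acly* was 675 and 553 CPM, and *Acsl4* (13.9 and 40.9 CPM) and *Elovl6* (10.5 and 17.7 CPM) were higher. Of the clock list, *Dbp* had 50.03 CPM untreated, 10.9 after IL-1β, 48.3 after IFN-γ and 10.2 after both cytokines and *Per3* 19.4, 4.8, 19.5 and 4.4, while *Nfil3*, the repressor at the same D-box elements, went from 15.6 to 57.3 CPM and *Clock* was 54.9 and 58.1 CPM.

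Large sets of housekeeping genes gave the level against which these values can be read. None of the 81 counted ribosomal protein genes was 2-fold higher or 1.5-fold lower (median log2 ratio 0.29), and of the 81 counted nuclear genes of the respiratory chain 1 was at least 1.5-fold lower and none 2-fold higher. The 13 mitochondrial genes had a median of -0.15, and 2 of them (15.4%) were at least 1.5-fold lower. Over all genes counted, 13.6% were at least 1.5-fold lower and 11.3% at least 2-fold higher, so that the mitochondrial share was near that of all genes.

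The remaining list counts stand beside the shares over all genes counted, 11.3% at least 2-fold higher and 13.6% at least 1.5-fold lower. All 14 counted interferon-inducible GTPases, all 7 counted chemokines and all 9 counted checkpoint, adhesion and costimulation genes were at least 2-fold higher, of which 13, 6 and 6 were over 10 CPM in one library only. Of MHC class I genes 8 of 10 were higher by that limit, of A20, TRAF and survival adaptors 8 of 10, of apoptosis genes 10 of 17, and of cytokines and growth factors 3 of 4. In these 4 lists 4, 4, 8 and 3 counted genes were over 10 CPM in one library only. Immediate early genes had 6 of 12 higher and 2 at least 1.5-fold lower, with 3 over 10 CPM in one library only. Of 19 genes of sterol and lipid synthesis, 6 were at least 1.5-fold lower and 1 at least 2-fold higher, of 14 adhesion genes 4 and 1, of 13 clock genes 3 and 3, and of 12 genes of nitric oxide and arginine 2 and 3. In these last 4 lists 1, 2, 3 and 1 counted genes reached 10 CPM in one library only. The prostaglandin list had 1 counted gene, which passed neither limit.

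**Figure D4:**
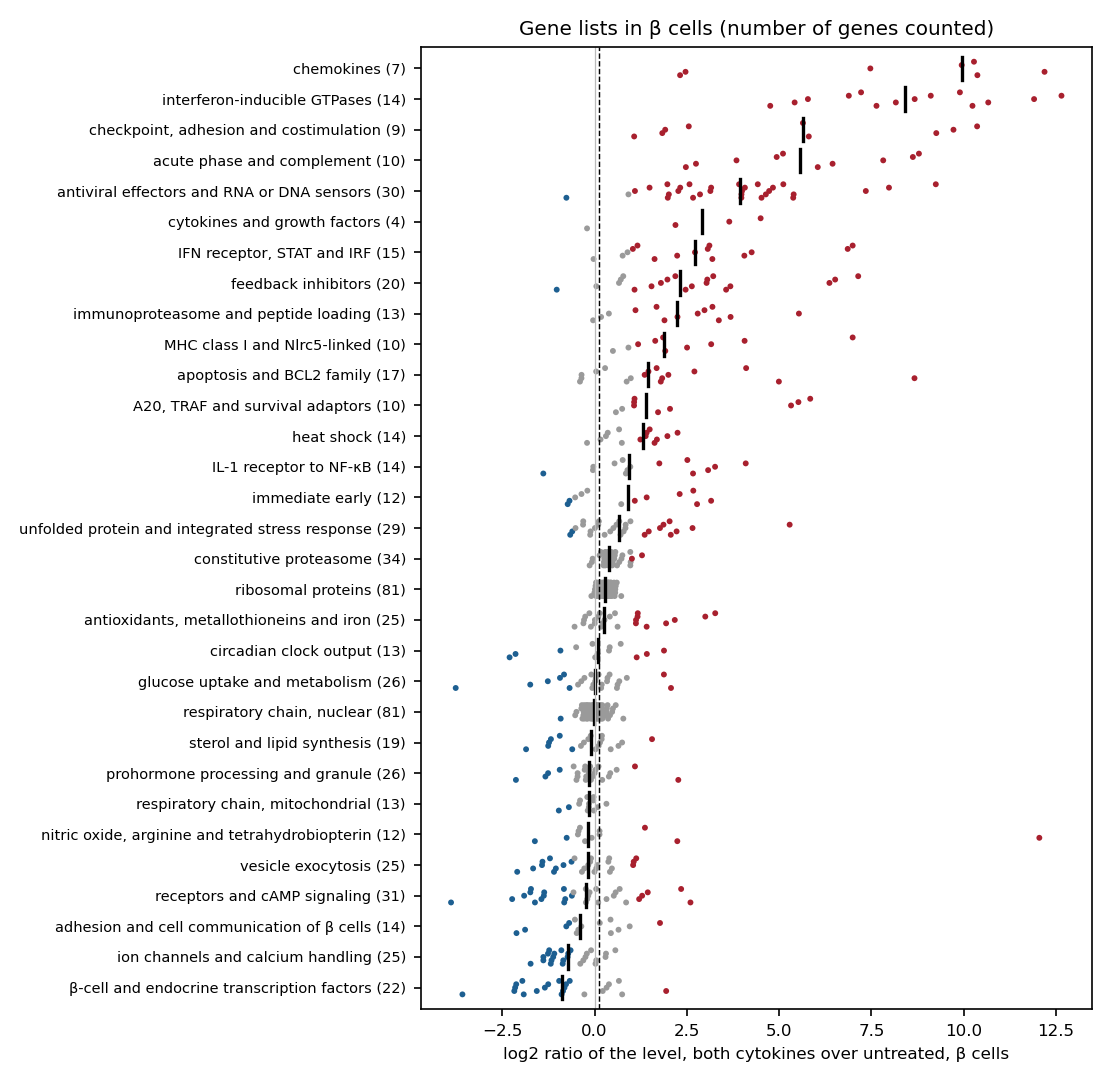
log2 ratio of the level with both cytokines over untreated in β-cells for each counted gene of the lists with at least 4 counted genes, 1 point a gene, with genes without an untreated UMI drawn at the floor of 3 UMIs. Red points are at least 2-fold higher, blue points at least 1.5-fold lower, black bars are list medians, and the dashed line is the median of all genes counted, 0.11. The defence and signalling lists lie at the top with wide spreads, the ribosomal and respiratory genes form narrow clouds near the dashed line, and the transcription factors and ion channels have the lowest medians.

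Sums over the named genes, which were ranked on this contrast, were compared per cell. Each β-cell was thinned to 4000 UMIs, which left 1135 untreated cells and 1224 with both cytokines and left out 35 and 31 shallower ones. The 20 named lower genes then summed to a median of 10 UMIs per untreated cell and 2 per treated cell, with 2 for IL-1β and 8 for IFN-γ. These 20 are the lowest genes and do not stand for all 418 lower genes. Over the 418, the median log2 ratio was -1.31 with both cytokines, -0.84 with IL-1β alone and -0.03 with IFN-γ alone. The 418 were selected on this contrast and the libraries share the control, so that these medians are set side by side only. Of the cells with both cytokines, 974 of 1224 (79.6%) lay below the untreated 5th percentile of 4 UMIs. The 15 named higher genes summed to a median of 0 UMIs untreated, 4 after IL-1β, 11 after IFN-γ and 16 after both, and 95.3% of the treated cells lay above the untreated 95th percentile of 1 UMI. With both cytokines, 39 of the 1224 cells (3.19%) held no UMI of the 15 genes.

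**Figure D5:**
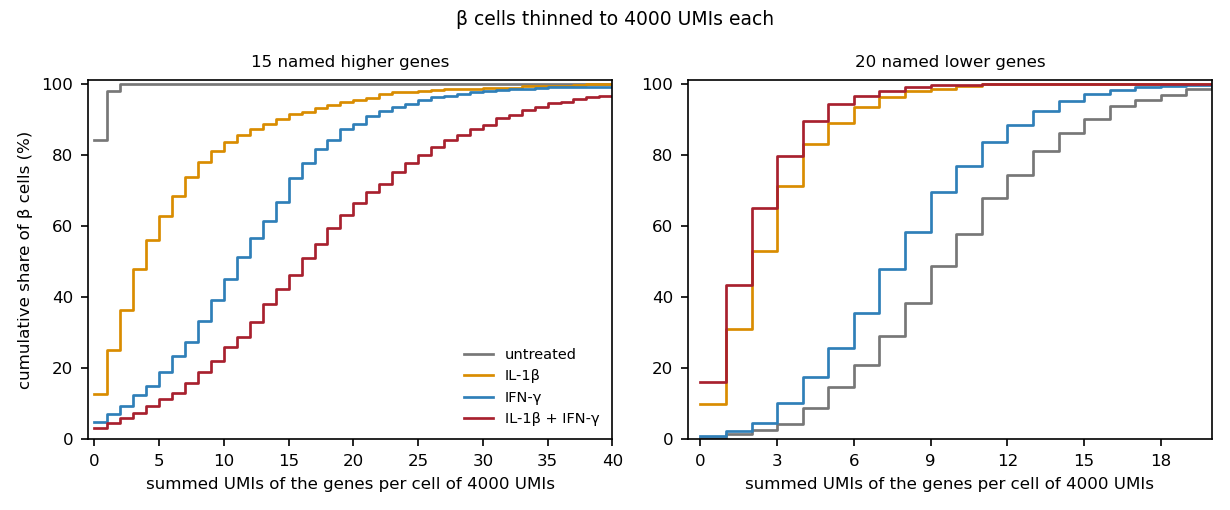
Cumulative share of β-cells (y axis, %) by the summed UMIs of the 15 named higher genes (left) and the 20 named lower genes (right) per cell thinned to 4000 UMIs (x axis), for the 4 libraries. The curve with both cytokines lies farthest right for the higher genes and, with that of IL-1β, farthest left for the lower genes, and the IFN-γ curve lies near the untreated one on the right.

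The share of cells with a UMI differed between single genes, and for several of the higher genes it was a minority of the treated cells. At 4000 UMIs per cell, *Iigp1* was found in 0.0881% of untreated and 70.2% of treated β-cells (0.171% and 83.5% without thinning), *Ccl2* in 0% and 31.2% (0.171% and 39.8%), and *Hamp* in 0% and 13% (0% and 18.7%). *Ppp1r1a* was found in 75.4% and 29.1% (93.3% and 59%) and *Wnt4* in 71.5% and 28.3% (93.1% and 51.2%). *Cxcl9* and *Cxcl1* had a UMI in 16% and 23.6% of treated β-cells without thinning. For *Iigp1* and *Ccl2*, the treated macrophages (89.7% and 34.5%) and endothelial cells (all 23 cells and 47.8%) had UMIs too, so that no type that lacks them is at hand and the part of free RNA was not tested. *Hamp* had a UMI in 3.45% of treated macrophages, in none of the 23 treated endothelial cells and in 51% of treated α-cells. Among the 23 endothelial cells a floor of 3 cells is 13%, which is not an exact limit. The part of free RNA from α-cells in the *Hamp* share was not tested. Macrophages had a *Ppp1r1a* UMI in 5.71% and 0% of cells and a *Wnt4* UMI in none, at median depths of 9987 and 9484 UMIs. They are 35 untreated and 29 treated cells, of which 3 cells, taken as the floor, make 8.57% and 10.3%. These floors are not exact limits, and 0 cells with a UMI can still stand for a low share. *Steap4* was found in 37.2% of treated β-cells at 4000 UMIs per cell and in 58.7% without thinning. For this gene, treated macrophages were at 3.45% and endothelial cells at 4.35%.

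Other endocrine cells of the same 2 libraries are set beside the β-cells without a test. There were 84 untreated and 145 treated α-cells and 17 and 44 δ-cells, with median depths of 10808 and 8351 UMIs in α-cells. *Wnt4* was 305 and 59.5 CPM in α-cells, *Gatsl2* 299 and 101, *Slc2a5* 171 and 38, and *Slc30a8* 585 and 169.6, lower with both cytokines as in β-cells. *Mlxipl* rested on few UMIs in α-cells (5 and 11) and gave no direction, its interval of the ratio running from 0.465 to 5.33. *Il4i1* had 1.59 CPM in treated α-cells and 12.6 in treated δ-cells against 161 in β-cells, and *Hamp* had 1647 CPM in treated α-cells, 8.4 in δ-cells and 168 in β-cells. *Iigp1* was 466, 576 and 646 CPM in treated α-, δ- and β-cells.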

How the data were processed

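Islet cells were profiled on the Chromium 3′ platform in 4 libraries, 1 per condition. The deposited matrices hold UMI counts per gene and barcode, which the authors made with Cell Ranger on mm10, with neither normalization nor a filter on cell type. The kit is version 2 in the labels and version 3 in the study's methods. Of 31053 gene identifiers, 31011 matched GENCODE M21, and strand-overlapping and near-identical genes cannot be told apart.

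Cells were kept and called β-cells by the limits in the report. UMIs were summed over β-cells per library and divided by their total (CPM). Levels have exact Poisson intervals and ratios exact conditional 95% intervals. Only the ratio intervals were run on simulated data. Those data were Poisson counts without spread between cells, so that the run cannot show whether the intervals are wide enough for real cells. With 1 library per group no test was run. Named genes are the 15 highest and 20 lowest on log2((CPM + 10)/(CPM + 10)) with a mean of at least 10 CPM, leaving out genes the study's text names, cell type markers, mitochondrial genes and unnamed models, and keeping those with the same direction after thinning, without hormone genes in the totals and without the upper gene limit. Members of 34 gene lists were counted, and some of them are not reported here. The members and lists were chosen with earlier results of these data known. Doublets were called with Scrublet (scanpy 1.11.5) at an expected rate of 0.05, which marked 5 untreated and 4 treated β-cells, kept except in 1 alternative. α- and δ-cells were called by their hormone, and macrophages and endothelial cells by their markers. Results were recomputed under 15 other settings and under 1 more chosen after seeing the data. Python 3.11.15 was used with scipy 1.17.1, pandas 2.3.3 and numpy 2.4.6.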

Additional observations from a re-analysis of the deposited data

Results flagged for a closer look

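Among the genes compared between cell types, *Gsr* was higher with both cytokines in β-cells (log2 ratio 1.12, 45.9 and 99.9 CPM) and lower in α-cells (69.7 and 40.4 CPM). *Pde10a*, a phosphodiesterase, was lower in β-cells (log2 ratio -1.36, 59.4 and 23.1 CPM) and higher in α-cells (91.3 and 159 CPM). In α-cells these levels rest on 58 untreated and 51 treated UMIs for *Gsr* and on 76 and 201 for *Pde10a*. Both genes were picked for their opposite directions in the 2 cell types. Each condition is a single library, and the difference between the cell types was not tested.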

How the results depend on the processing

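The number of genes at least 2-fold higher with both cytokines stayed within 1.5 times of 807 in every alternative except that without a filter on genes, which gave 1928. The number at least 2-fold lower, 418, was 682 with a mean of at least 5 CPM, 737 with a UMI in at least 10% of cells of either library and 2210 without a filter. At 1.5-fold lower, 971 became 1483 with the hormone genes left out of the totals, 1473 and 1526 under the same 2 filters, and 3708 without a filter. Looser filters count more genes, by construction. Centring on the median of all genes gave 690 higher and 529 lower, and cells of 8000 to 16000 UMIs alone 685 and 624. Of 202 genes named here, 186 kept their direction throughout, and of the 150 at least 2-fold apart, 139 stayed so. With equal weight for each cell the log2 ratio was -1.17 for *Ctrb1* and -0.27 for *Spp1*. *Sst*, on which cells were chosen, turned to -0.17 without the upper gene limit, to -0.37 when the hormone genes were also left out (a setting chosen after seeing the data) and to -1.32 with the stricter hormone limit of 0.2%. The causes were not tested. No paired analysis was possible because each condition is 1 library. Depth differed between the libraries, and 1 culture per condition leaves the spread between cultures unknown.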

Other observations

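The following genes outside the lists were picked singly after their values were seen, so that they stand for no group. Levels are in the order untreated, IL-1β, IFN-γ and both. *Cldn7*, a claudin, had 68.2, 240.2, 113 and 390.1 CPM, *Cgn*, the junction protein cingulin, 19.7, 139, 23.3 and 128 CPM, and *S100a10*, a partner of annexin A2, 49.6, 248, 65.6 and 238 CPM. All 3 were high with IL-1β alone. *Cldn7* is also a marker of ductal cells, and the part of such cells was not tested.

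*Pnp*, purine nucleoside phosphorylase, had 22, 133, 51.8 and 269 CPM, *Upp1*, uridine phosphorylase, 49.2, 179.7, 67 and 353 CPM, and *Nampt*, which starts NAD salvage, 33.6, 107, 163 and 174 CPM. *Mthfd1*, a folate enzyme that feeds purine synthesis, was lower, with 41.9, 19.4, 33.1 and 11.3 CPM. *Glul*, glutamine synthetase, had 136, 747, 316 and 729 CPM, and *Wars*, the tryptophanyl-tRNA synthetase, 54.3, 95.2, 421 and 515 CPM, the latter high where IFN-γ was present. *Peg3* had 508, 336, 503 and 232 CPM, *Zim1* 17.4, 4.28, 14.7 and 2.72 CPM and *Nap1l5* 24.8, 14.1, 26 and 5.11 CPM. These 3 genes were lower with IL-1β alone and near the untreated level with IFN-γ alone. The transcription factor gene *Cebpd* had 57.8, 928, 101 and 665 CPM, *Clic4*, a chloride intracellular channel protein, 43.6, 349.8, 108 and 576 CPM, and *Litaf*, an endosomal membrane protein, 8.71, 181, 16.4 and 237 CPM.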
